A study of Mus musculus with 24 samples.

Results

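The spleen comparison of this series set RNA of mice without Nur77 (Nur77-/-) against RNA of wild-type mice (Nur77+/+) on 4 of the 24 deposited 2-colour cDNA arrays, the ones whose labels name spleen. Both pools were spleen RNA; per the labels' design text each held 7 mice, while the labelling protocol gives a control pool of 6 animals. The mutant pool carried Cy5 on replicates 1 and 2 and Cy3 on replicates 3 and 4. No source used here gives treatment, strain, age or sex, and the knockout is described no further than by its name. The other 20 arrays compare the same genotypes in lung, heart, testis, skeletal muscle and brown adipose tissue.

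Each value is the authors' deposited log2 ratio, read as mutant over wild-type pool, so a negative value stands for less RNA in the mutant pool. This direction is likely but stated in no source used here, as is base 2 of the logarithm, on which every fold given here rests. Ratios alone give no level in either pool. A gene was kept where at least 3 of the 4 spleen arrays had a value and both dye orientations were covered. This left 7279 of the 9834 genes with 1 symbol, and 11217 of 16148 rows once the 3938 kept probes without a symbol are included. The 4 arrays repeat the hybridisation of 1 pair of pools, so the error behind each p-value is that of repeated hybridisation and does not cover the spread between animals. In such tissue RNA, fewer cells of a type and less RNA per cell cannot be told apart.

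Nur77 is the product of Nr4a1, which belongs with the orphan nuclear receptors of the NR4A family. Its relatives are Nr4a2 (Nurr1) and Nr4a3 (Nor1). In lymphocytes its gene is switched on quickly after antigen receptor stimulation, and in mice the receptor is required for the patrolling, Ly6C-low monocytes of blood and spleen. The spleen filters blood through its red pulp, where macrophages take up old red cells, and holds B-cell follicles and T-cell zones in its white pulp. The tail of the pancreas, an organ of acinar cells that secrete digestive enzymes, ends at the splenic hilum.

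The targeted gene was read first. Nr4a1 had log2 ratios of -0.85, -0.41, -0.71 and -0.79 on replicates 1 to 4, a mean of -0.69 ± 0.19 (SD, n = 4). All 4 arrays lay below 0, in both dye orientations. The model gave -0.69 ± 0.33 (SE), with an unadjusted p of 0.0488 (limma). After Benjamini-Hochberg adjustment over all 11217 rows it did not pass limma's test (adjusted p = 0.872). The part of the transcript that the probe reads, and whether the knockout removes it, are stated in no source used here, so the value does not settle the genotype of the pools. In the other organs the mean Nr4a1 ratio ran from -1.35 in skeletal muscle to -0.20 in testis, and spleen differed from their mean by 0.04 ± 0.33 (SE). Of its relatives, Nr4a3 had values of -0.99, -0.29 and 2.28 on replicates 1, 2 and 4, with no sign shared. Its values were below 0 with the mutant pool in Cy5 and above 0 with it in Cy3, and its dye term in the model was -2.04. Nr4a2 had a value on 1 spleen array.

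Genes of the exocrine pancreas were lower in the mutant spleen pool. Of 11217 rows, 20 passed limma's test at an adjusted p under 0.05 (0.178% of the rows), 17 lower (0.152%) and 3 higher (0.0267%) in the mutant pool. Of the 20, 15 have a gene symbol. Of 11 tested enzymes made by acinar cells, 7 were lower by 10.4-fold to 98.8-fold, and of 8 other acinar genes tested, 2 were lower. The enzymes' median log2 ratio was -3.82 and that of the other acinar genes -0.41, against -0.02 over all rows. The smallest difference that passed was 2.55 (log2 size) among lower rows and 2.25 among higher ones, and the smallest fold that passed was 4.75. At an unadjusted p under 0.05 there were 640 rows (5.71%), 317 lower (2.83%) and 323 higher (2.88%).

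Genes of protein digestion held the lowest ratios of the named genes. The elastases, chymotrypsins and carboxypeptidases are secreted as inactive precursors and digest protein in the gut. Cela2a, an elastase, had log2 ratios of -5.57, -6.93, -6.07 and -7.93 on replicates 1 to 4. Its fitted ratio was -6.63 ± 1.17 (SE, limma, adjusted p = 0.0434), the lowest of all rows. Its standard error, estimated over the arrays of all organs, was the widest among the called pancreas genes, and the call was lost without any 1 of the spleen replicates (adjusted p = 0.116 to 0.215). Ctrl, a chymotrypsin-like protease, had ratios of -5.32, -6.67, -5.30 and -7.42, fitted as -6.18 ± 0.58 (adjusted p = 7.23e-06). Ctrb1, chymotrypsinogen B, stood at -5.72, -5.34, -5.75 and -6.28, fitted as -5.77 ± 0.69 (adjusted p = 0.000119). Every array of these proteases was below -5, and in each of them replicate 4 was lowest.

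Cela3b, another elastase, was the tightest of the enzymes, with ratios of -4.16, -3.71, -3.74 and -3.66 on replicates 1 to 4 and a fitted ratio of -3.82 ± 0.37 (SE, limma, adjusted p = 1.43e-05). Cpa1, carboxypeptidase A1, which removes amino acids from the end of a protein chain, gave -3.40, -2.93, -2.43 and -4.78, fitted as -3.38 ± 0.44 (adjusted p = 0.000435). Both were below -2 on every array.

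Of the genes of fat digestion, Clps and Pnliprp1 were lower. Clps, colipase, the cofactor that anchors pancreatic lipase to fat droplets, had ratios of -4.68, -7.93, -4.52 and -5.45, fitted as -5.64 ± 0.70 (SE, limma, adjusted p = 0.000198). Pnliprp1, a lipase-related protein of the pancreas, had -5.16, -4.76, -2.35 and -4.54, fitted as -4.20 ± 0.63 (adjusted p = 0.00163). The weaker value of Pnliprp1 on replicate 3 averages 2 probes: 1 read between -5.16 and -4.54 on all 4 arrays and the other had a value, 0.21, on that array alone. The Pnliprp1 call was lost when the very large values that were treated as missing were kept (adjusted p = 0.811).

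Among the other acinar genes, Zg16 and Spink1 were lower. Zg16 encodes a lectin of the membrane of zymogen granules, the stores of enzyme precursors. Its ratios of -5.06, -5.44, -5.05 and -5.20 on the 4 arrays hardly differed, and the fit gave -5.19 ± 0.41 (SE, limma, adjusted p = 2.27e-06), the smallest adjusted p of the comparison. Spink1, a trypsin inhibitor that guards the gland against its own enzymes, had -3.66, -4.58, -2.24 and -3.74, fitted as -3.55 ± 0.50 (adjusted p = 0.00163). Both sets of 4 values lay below 0 in both dye orientations.

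Some genes of the lists did not share these values. Klk1, tissue kallikrein, stood at -1.63, Pnliprp2, another lipase-related protein, at -1.57 and Pla2g1b, the secreted phospholipase of pancreatic juice, at -1.56, each below 0 on every array with a value, and none passed the test. Cpb1, carboxypeptidase B1, went the other way with values of 1.66, 1.82 and 2.72 on replicates 1, 3 and 4, and its fitted ratio of 1.88 ± 1.16 did not pass (limma, adjusted p = 1). Sycn, a granule protein, stood at -1.69 on 3 arrays, while Rbpjl, a subunit of the acinar transcription factor complex PTF1, stood at -0.05. The remaining acinar genes tested, Erp27, Dmbt1, Aqp8 and Gnmt, stood at -0.59, -0.23, 0.22 and 0.29. The enzymes Ctrc and Rnase1 had values on only 2 arrays each and were not tested; those of Ctrc were 2.52 and -0.92 and those of Rnase1 0.95 and 0.30. So 9 of the 19 genes tested from the acinar lists passed, and 12 of the 13 with 4 values were below 0 on all of them, against 6.93% of all rows with 4 values (7.03% were above 0 on all 4). The 12 include the 9 that passed on these same arrays, so their signs add little to the calls. The 13 leave out Pla2g1b, Sycn, Rbpjl, Cpb1, Aqp8 and Gnmt, with 3 values each. Of these, Cpb1, Aqp8 and Gnmt had fitted ratios above 0.

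**Figure D1:**
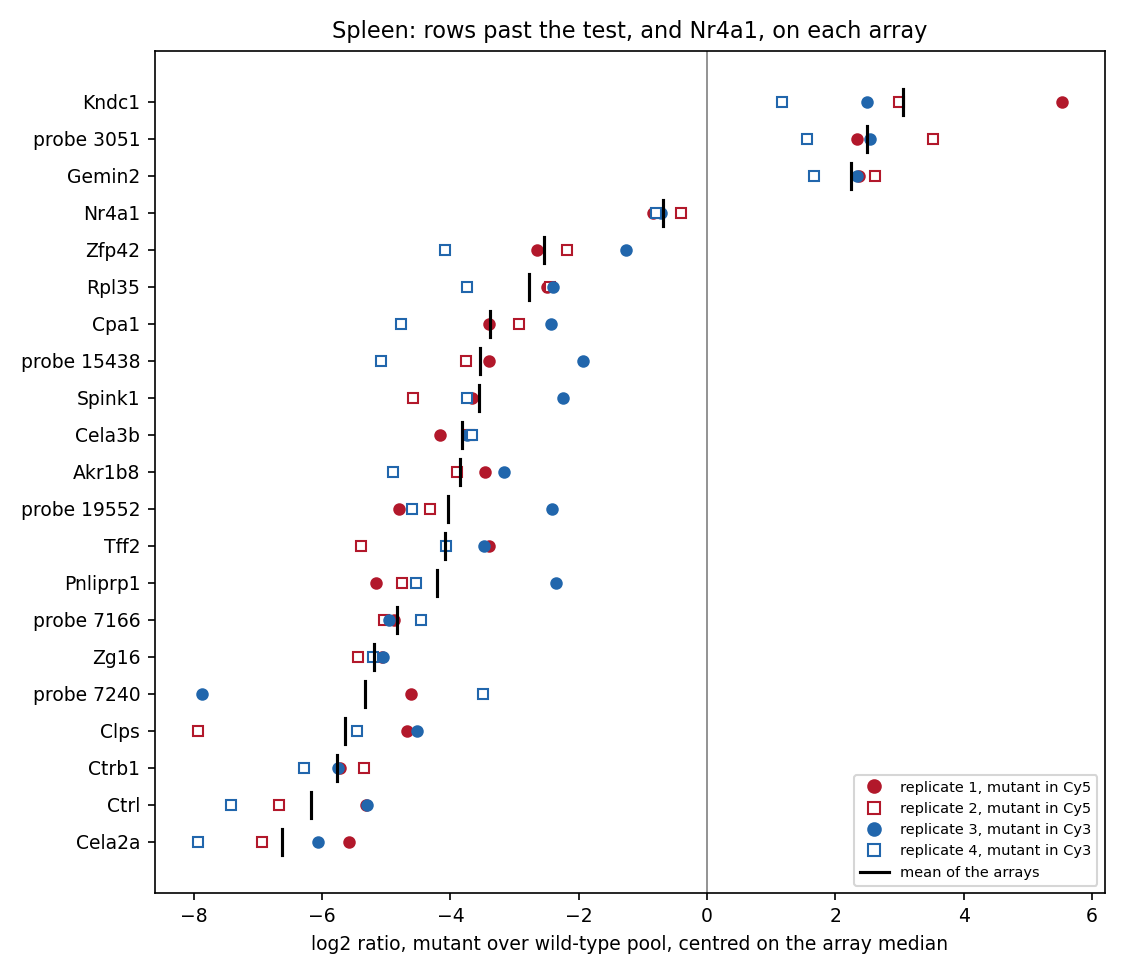
Log2 ratio of the mutant over the wild-type pool (x axis, centred on each array's median) for Nr4a1 and the 20 rows past the test (y axis); red and blue points are arrays whose mutant RNA carried Cy5 and Cy3, and the black bar is the mean of the arrays. The points of each row stay on 1 side of 0, from -7.93 for Cela2a and Clps to 5.52 for Kndc1.

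The following 3 pancreas promoters are printed because they hold CACCTG, the E-box bound by the basic helix-loop-helix subunit of PTF1, which drives acinar enzyme genes. They are 300 bases long, 250 before and 50 after the RefSeq start (GRCm38.p6), 5′ to 3′ on the gene's strand, with CACCTG on either strand in capitals. Ctrl lies at chr8:105933813-105934112 (minus strand), Cela3b at chr4:137430471-137430770 (minus strand) and Cela2a at chr4:141825956-141826255 (minus strand).
Ctrl: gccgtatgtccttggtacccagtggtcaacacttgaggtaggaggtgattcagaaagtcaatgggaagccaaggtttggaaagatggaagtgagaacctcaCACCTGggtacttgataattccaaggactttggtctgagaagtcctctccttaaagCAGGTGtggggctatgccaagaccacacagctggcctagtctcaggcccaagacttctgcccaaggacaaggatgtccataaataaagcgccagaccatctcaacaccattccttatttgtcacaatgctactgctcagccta
Cela3b: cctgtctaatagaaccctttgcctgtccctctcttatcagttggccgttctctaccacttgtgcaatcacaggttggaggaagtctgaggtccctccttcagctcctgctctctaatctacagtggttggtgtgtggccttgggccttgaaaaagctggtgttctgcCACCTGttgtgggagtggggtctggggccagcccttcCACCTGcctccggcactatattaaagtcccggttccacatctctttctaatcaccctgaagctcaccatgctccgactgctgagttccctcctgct
Cela2a: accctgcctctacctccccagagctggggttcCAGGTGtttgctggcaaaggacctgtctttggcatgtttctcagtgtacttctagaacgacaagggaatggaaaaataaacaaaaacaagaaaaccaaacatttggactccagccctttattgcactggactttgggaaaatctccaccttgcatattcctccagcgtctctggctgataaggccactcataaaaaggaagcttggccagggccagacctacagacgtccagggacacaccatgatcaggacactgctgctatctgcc

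The E-box of Ctrl starts 149 and 93 bases before the transcription start, that of Cela3b 83 and 46 bases, and that of Cela2a 218 bases. Of the 9 pancreas genes past the test, 6 were in the promoter table and 3 of them held the E-box, which 20.3% of 32544 promoters of this length hold. The NBRE, AAAGGTCA, the octamer that NR4A receptors bind as monomers, was searched on both strands and was not in these 6 windows; 1.52% of all promoters hold it. The search for TATAAA, which 13.6% of promoters hold, found it in none of the 6. A match says only that the letters are there.

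The 9 pancreas genes past the test had 1 sign on the 4 arrays, on which the dyes were exchanged. They were picked by a test on these same arrays, so the shared sign adds no separate support. Replicates 1 and 2 carried the mutant pool in Cy5, replicates 3 and 4 in Cy3. Over all rows, 21 had a mean below -3 in both orientations, and 14 of these passed the test, 8 of them pancreas genes. Only 5 rows had a mean above 3 in both. A mean below -3 with the mutant in Cy5 and above 3 with it in Cy3 was found in 17 rows, and the reverse in 0. Across genes the spleen arrays hardly correlated with each other: Spearman's rho between pairs of arrays ran from -0.06 to 0.08, and genes are not independent replicates. If the arrays with the mutant pool in Cy3 were turned in sign, as for ratios of Cy5 over Cy3, the median of the enzymes would be -0.17 and no row would pass, with 557 rows at an unadjusted p under 0.05.

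**Figure D2:**
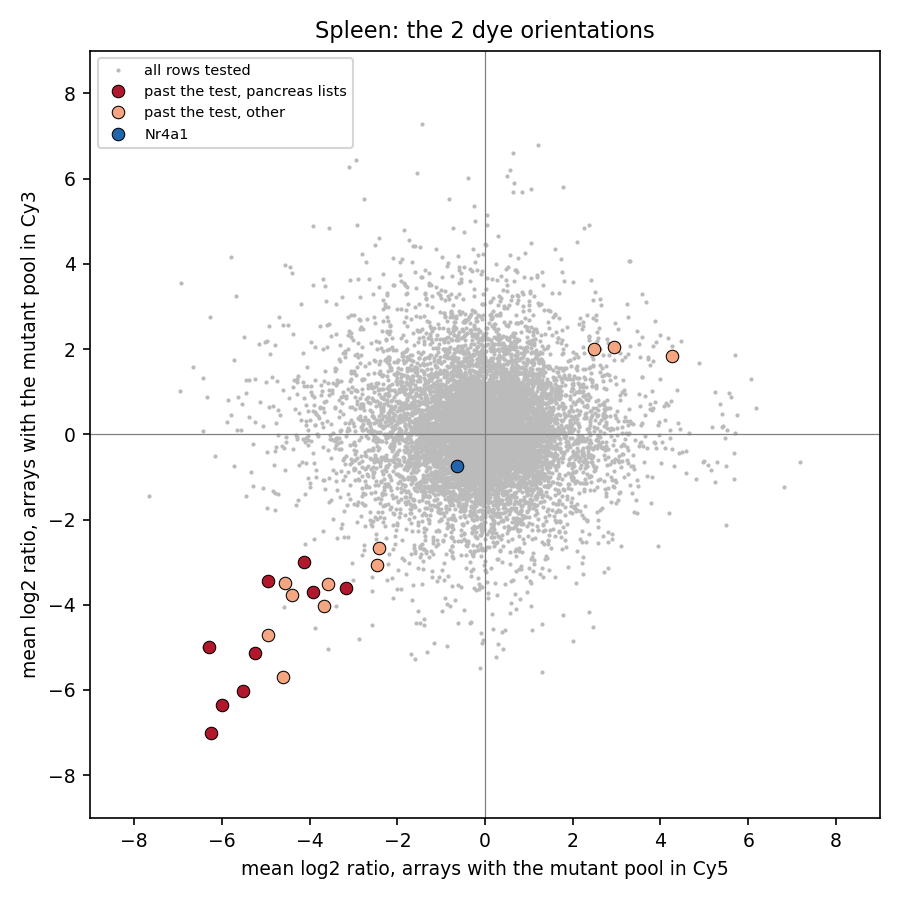
Mean log2 ratio of each row over the arrays whose mutant RNA carried Cy5 (x axis) or Cy3 (y axis), with all 11217 rows in grey, rows past the test in red (pancreas lists) or orange (others) and Nr4a1 in blue. Most rows form a round cloud at 0, and 17 rows past the test lie at its lower left.

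The other called rows hold genes of several kinds. Tff2, a trefoil peptide secreted with mucus by stomach and other epithelia, had ratios of -3.40, -5.39, -3.47 and -4.06, fitted as -4.08 ± 0.80 (SE, limma, adjusted p = 0.0424). It was the only 1 of 10 tested genes of gut and duct epithelium to pass, and the list's median was 0.21. Of the 10 genes, 5 were below 0 and 5 above. Without Tff2 they ran from -0.83 (Cdx1, a transcription factor of the intestine) to 1.25 (Cldn4, a claudin of tight junctions). The Tff2 call was lost without any 1 of the spleen replicates (adjusted p = 0.0837 to 0.271). The part of epithelial cells of the gut in this value was not tested.

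Akr1b8, an aldo-keto reductase that reduces aldehydes, had ratios of -3.46, -3.89, -3.16 and -4.90, fitted as -3.85 ± 0.38 (SE, limma, adjusted p = 1.53e-05). Zfp42, the zinc finger protein Rex1 known from embryonic stem cells, had -2.65, -2.19, -1.27 and -4.08, fitted as -2.55 ± 0.39 (adjusted p = 0.00341). Both were below 0 on every array and lowest on replicate 4. The Zfp42 call was lost with a dye term for each organ (adjusted p = 0.0582). With the spleen arrays alone and no dye term, the calls of Cela2a, Ctrl, Ctrb1 and Zg16 stayed (limma, adjusted p = 0.0449 each), and those of the other 11 named genes were lost, with adjusted p from 0.124 for Cela3b to 0.907 for Zfp42 and Kndc1.

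Rpl35, a protein of the large ribosomal subunit, had averaged ratios of -2.49, -2.46, -2.40 and -3.74, fitted as -2.77 ± 0.34 (SE, limma, adjusted p = 0.000119). Its 3 probes disagreed. The means of 2 of them were -0.90 and -0.99, and the last read -6.16, -6.44, -5.87 and -7.20, with a mean of -6.42. With the median of the probes in place of the mean, Rpl35 stood at -1.01 and did not pass (adjusted p = 0.647). The value of the last probe is in the range of Ctrl and Cela2a and far from that of the other 2.

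The named genes among the higher rows were Kndc1 and Gemin2. Kndc1, which encodes a kinase non-catalytic domain protein known from neurons, had ratios of 5.52, 2.99, 2.50 and 1.17, fitted as 3.05 ± 0.60 (SE, limma, adjusted p = 0.0434). Gemin2, a component of the SMN complex that assembles spliceosomal particles, had 2.37, 2.62, 2.34 and 1.67, fitted as 2.25 ± 0.37 (adjusted p = 0.0040). Both were above 0 on every array, and Gemin2 varied less. Both calls were lost without replicate 1, without replicate 2 and without replicate 3, with adjusted p up to 0.491 for Kndc1 and up to 0.0611 for Gemin2. Among genes above 0 on every array, Myh7 (3.68), Tm9sf4 (3.38) and Ctsw (3.17) had larger fitted ratios than Kndc1 without passing. Myh7 is the slow myosin heavy chain and Ctsw a cathepsin of cytotoxic lymphocytes. Their arrays differed widely, from 1.16 to 5.66 for Myh7 and from 0.41 to 5.13 for Ctsw.

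The other 5 called rows have no symbol in the platform annotation. Of these, 4 were lower, at -5.25, -4.83, -4.03 and -3.54, and 1 was higher, at 2.49. Probe 7166 read -4.88, -5.04, -4.95 and -4.46 on the 4 arrays, with an SD of 0.26, beside 0.18 for Zg16. The higher row, probe 3051, stood at 3.71 ± 0.88 (SD, 3 arrays) in skeletal muscle, above its spleen mean of 2.49 ± 0.81 (SD, n = 4), and at 0.10 to 0.44 in the other organs.

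The difference was then set against the other 5 organs. The contrast of spleen minus the mean of the other organs could be tested in 7553 rows, of which 14 passed (0.185%), 13 lower (0.172%) and 1 higher (0.0132%) in spleen. Of the 14, 8 are named genes that are also lower in spleen itself: Ctrb1 and Ctrl at -5.88 each, Clps at -5.45, Zg16 at -5.32, Pnliprp1 at -4.17, Cela3b at -3.79, Cpa1 at -3.33 and Rpl35 at -2.64. Kndc1 was the 1 higher row, at 3.06. The enzymes with enough values in every organ had a median of -0.05 over the other organs. Zg16 shows the pattern: its organ means were 0.13 in brown adipose tissue, 0.16 in heart, 0.58 in lung, -0.19 in skeletal muscle and -0.01 in testis, against -5.19 in spleen.

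Among the 9 pancreas genes past the test, Ctrl had the largest mean outside spleen in size, with a mean of -1.96 ± 1.28 (SD, n = 4) in lung, where the 4 arrays ran from -2.72 to -0.04. Cela2a stood at 1.40 in lung and Akr1b8 at 1.11 in skeletal muscle, while their other organ means outside spleen stayed within 1 of 0. Cela2a, Spink1, Akr1b8 and Zfp42 lacked the values needed in at least 1 other organ and were not tested in this contrast. Tff2 at -3.69 and Gemin2 at 1.63 did not pass (limma, adjusted p = 0.118 and 0.123). The mean of Gemin2 was also above 0 in every other organ, from 0.27 in brown adipose tissue to 1.52 in skeletal muscle. The share of arrays on which the 13 enzymes of the array had a value was 88.5% in spleen and 76.9% to 100% elsewhere, so a value was deposited about as often in the organs where the ratio was near 0.

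**Figure D3:**
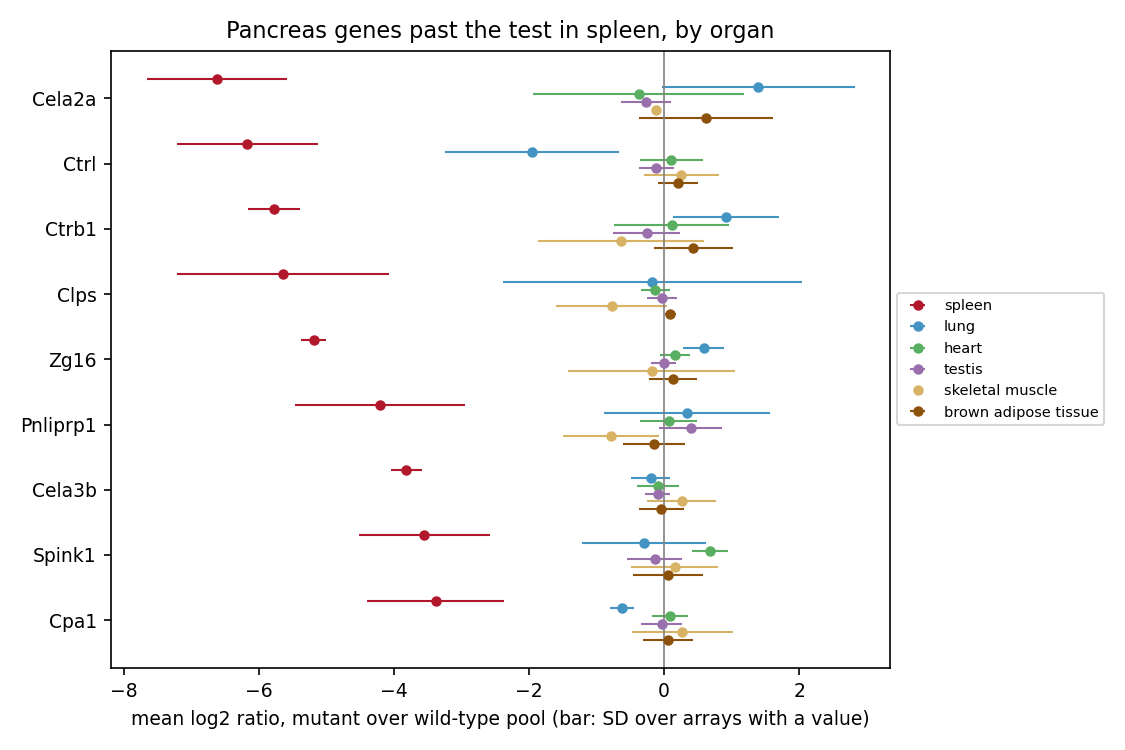
Mean log2 ratio of the mutant over the wild-type pool (x axis; bars are the SD over arrays with a value, and a point without a bar has 1 array) for the 9 pancreas genes past the test in spleen (y axis), coloured by organ. All 9 spleen means lie at or below -3.38, and the lowest mean of another organ is that of Ctrl in lung, -1.96.

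Few genes of the pancreatic islets could be read. Of 23 islet genes listed, 7 were on the array and 5 were tested, and those of insulin and glucagon were not among them. Of the 5, 0 passed, and their fitted ratios ran from -0.44 for Slc2a2, the glucose transporter GLUT2, to 0.01 for Rbp4. Only 1 of them had values on all 4 arrays, and the SE ran from 0.59 (Chga) to 1.68 (Slc2a2). A missed threshold therefore does not show equal expression. Sst, the hormone somatostatin of delta cells, stood at -0.26 ± 0.76. None of the 5 had an unadjusted p under 0.05. Of 27 genes of the secretory pathway and the endoplasmic reticulum, which all secreting cells use, 0 passed, with a median of -0.12. The part of pancreas tissue in the values of the acinar genes was not tested.

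The lists of spleen and blood cells had no gene past the test. Their 129 tested genes (of 164 on the array, in 14 lists) had a median log2 ratio of -0.17, and 88.4% of them were within 1 of 0, against 79.3% of all rows. At an unadjusted p under 0.05 there were 4 lower and 2 higher genes, 4.65% of the 129, near the 5.71% of all rows. The lower genes include Nr4a1 itself, the targeted gene, which is on the list of patrolling monocytes. The median SE of these genes was 0.71, large beside most of their ratios, so a missed threshold does not show equal expression. The lowest adjusted p was 0.216 (limma). As a check of the label, B-cell genes had a value in 87.5% of gene-array pairs and T-cell genes in 93.3%, but in the other organs these shares were 76.6% to 92.2% and 83.3% to 98.3%, so values in a ratio table do not show the tissue.

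Among B-cell genes, 15 were tested, with a median of -0.22. Fcrla, an Fc receptor-like protein of B cells, had the lowest ratio, -1.30 ± 0.46, and Blk, a kinase of B-cell receptor signalling, the highest, 0.84 ± 0.41. Cd79b, a signalling chain of the receptor, stood at 0.09, and Ms4a1, the surface protein CD20, at 0.18. The 14 tested T-cell genes had a median of -0.18. Cd3d, a chain of the T-cell receptor complex, stood at 0.09 ± 0.40, and Thy1, a surface protein of T cells, at 0.10 ± 0.39. The list ran from -0.73 (Cd6, a receptor on T cells) to 1.33 (Cd2, an adhesion receptor), with 8 of 14 genes below 0. Of 4 tested genes of regulatory and activated T cells, Foxp3, the transcription factor of regulatory T cells, had the lowest ratio, -1.37, on 3 arrays, and the list's median was -0.97. These medians leaned on replicate 4: without it they were 0.07 for B-cell genes, 0.15 for T-cell genes and -0.32 for regulatory and activated T cells.

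No gene of the myeloid cells passed the test either. Of 15 genes of monocytes and macrophages, 14 had a fitted ratio below 0, with a median of -0.29 (-0.19 without replicate 4) and a range from -0.83 (Ctsd, a lysosomal protease) to 0.26, and 0 of the 15 had an unadjusted p under 0.05. Of 8 tested genes of patrolling monocytes, a list that holds Nr4a1 itself, 5 were below 0 and 3 above. Spn, the sialophorin CD43 that patrolling monocytes carry in large amounts, stood at -0.89 ± 1.13, Ace, the angiotensin-converting enzyme, at 1.46 ± 1.09, and Klf2, a transcription factor, at 1.57 ± 1.16. With errors of this size, a change in these cells could have gone undetected. The 4 tested MHC class II genes, which present antigen, had ratios from -0.73 (Cd74, the invariant chain) to -0.04 (H2-DMb1). H2-Ab1, a class II beta chain, had -0.67, -0.25, -0.95 and -0.95 on the 4 arrays, with 1 sign, and did not pass.

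The red pulp and the blood cells formed there gave the same picture. Of 10 genes of red pulp macrophages and iron handling, 8 were below 0, with a median of -0.30, and of -0.09 without replicate 4. The 16 tested erythroid genes had a median of 0.15. Hba-a1, a chain of haemoglobin, stood at -0.46 ± 0.38 and Slc4a1, the anion exchanger of red cells, at 0.21 ± 0.52. Nfe2, a transcription factor of erythroid cells and megakaryocytes, had -1.77, -1.58, -1.32 and -3.23, the lowest ratio of all these lists, and its fitted -1.97 ± 0.48 did not pass after adjustment (limma, adjusted p = 0.216). All 4 arrays of Nfe2 were below -1. Of 13 neutrophil granule genes, 0 had an unadjusted p under 0.05, and the median was -0.14 (0.03 without replicate 4), with Mpo, myeloperoxidase, at -0.99 ± 0.74.

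**Figure D4:**
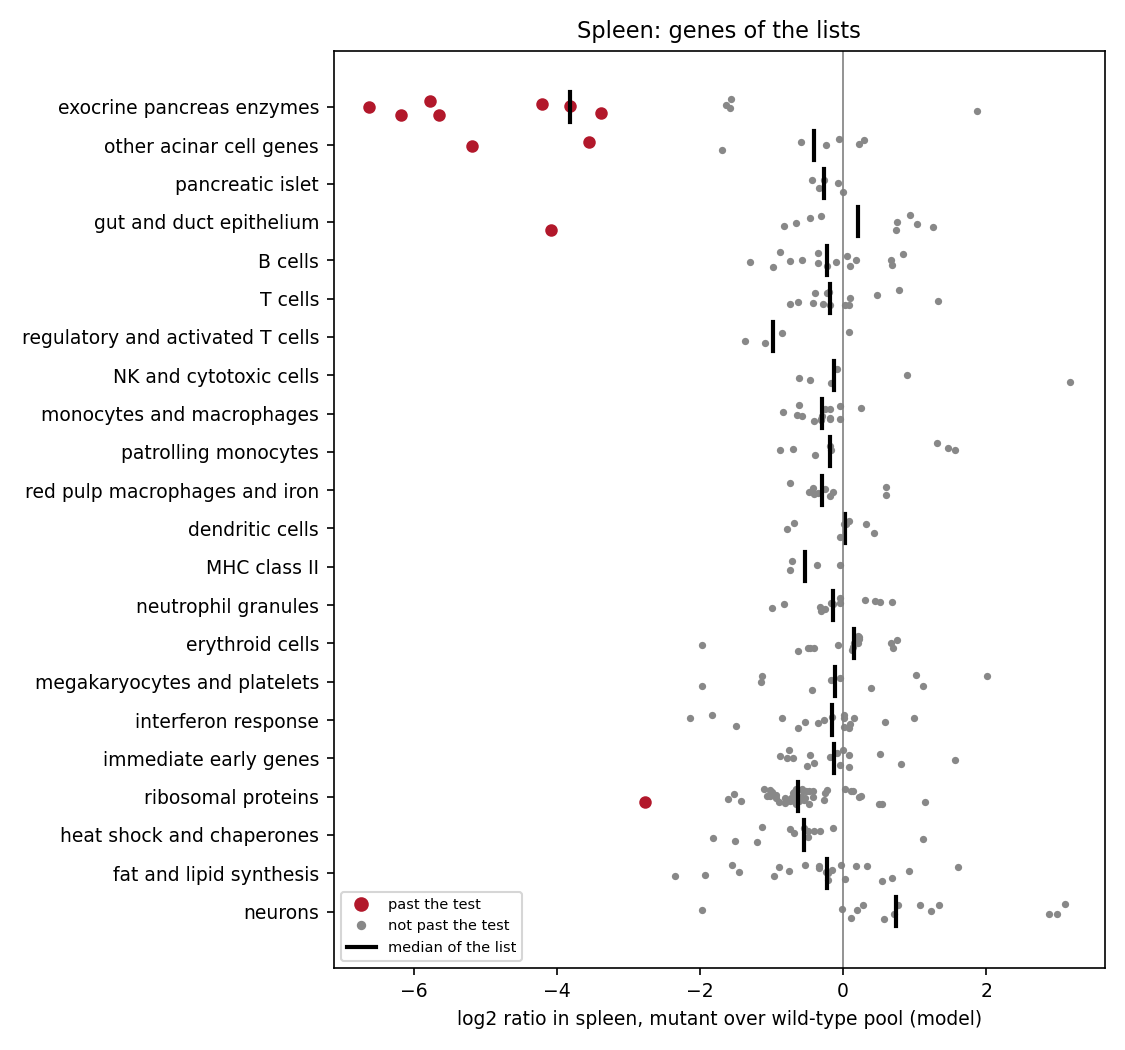
Fitted log2 ratio in spleen (x axis) of each tested gene in 22 lists (y axis); red points passed the test, grey points did not, and the black bar is the list's median. Red points occur in the 2 acinar lists, for Tff2 among gut and duct genes and for Rpl35 among ribosomal proteins, and the medians of the immune and blood cell lists plotted here lie between -0.97 and 0.15.

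Lists outside the cell types were read the same way. Of 46 tested ribosomal protein genes, Rpl35 alone passed, and 38 had a fitted ratio below 0, with a median of -0.63. Their medians on replicates 1 to 4 were -0.49, -0.07, -0.32 and -1.77. Replicate 4 was the lowest, and without it the median was -0.35. Of the 43 ribosomal genes with 4 values, 20 were below 0 on all 4 arrays, against 6.93% of all rows, and 11 of the 46 were lower at an unadjusted p under 0.05, against 2.83%. Of 13 heat shock and chaperone genes, 12 were below 0, with a median of -0.54, and 0 passed. Over the other organs the median of this list was -0.20. Hspd1, a mitochondrial chaperonin, was lowest at -1.82 ± 0.83, with -5.16, -0.97, -0.04 and -1.10 on replicates 1 to 4. Its ratio thus leaned on replicate 1. Several of the spleen and blood lists were lowest on replicate 4 as well, such as the B-cell genes with a median of -0.81 there and of -0.05 to 0.18 on the other arrays. The array was centred on its own median, and its part in these medians was not tested beyond leaving it out.

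Interferon response genes had a median of -0.16 over 17 tested, with Mx2, an antiviral GTPase, at -2.14 ± 0.92 from arrays that ran from -4.16 to 0.69. The 16 immediate early genes, the class to which Nr4a1 belongs, had a median of -0.13, and 19 cell cycle genes one of 0.09. Among 22 genes of fat and lipid synthesis, Thrsp, a regulator of lipogenesis, had the smallest adjusted p, at -1.55 ± 0.34 (limma, adjusted p = 0.105), and did not pass. Of 14 genes known from neurons, 12 were above 0, against 5477 of all 11217 rows, with a median of 0.74, and 0 passed. At an unadjusted p under 0.05, 3 were higher and 1 lower, against 2.88% and 2.83% of all rows. Only 4 of the 14 had values on all 4 arrays. Nefh, the heavy neurofilament, was highest at 3.10 ± 0.76 and Stx1a lowest at -1.97 ± 0.60, each on 3 arrays. Fn1, fibronectin, was above 0 on all 4 arrays, with 1.44, 0.12, 1.75 and 1.12, and did not pass either.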

How the data were processed

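The authors deposited ratios on a log scale by probe and array, read here as log2, with empty cells on every array. How they were scaled, centred, background-corrected and normalized, and why cells were left empty, is not given in the sources used here. Base 2 was assumed, not tested, and every fold rests on it. Sizes above 12, a separate group (none lay between 9.94 and 15.70), were treated as missing. The direction, mutant over wild type, is likely and not stated. Labelling started from 20 µg of total RNA, per the labels' protocols. Gene names come from the platform annotation: of 20205 probes, 13891 have 1 symbol, 5 several and 6309 none there, and 13855 were found in RefSeq (GRCm38.p6), with 0 symbols changed. Probes of 1 symbol were averaged.

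The spleen arrays had 13396 to 15033 values, and medians from -0.32 to 0.34 before each array was centred on its median. limma 3.58.1 in R 4.3.3 was fitted to all 24 arrays with 6 organ coefficients, 1 dye term and weights per organ, since organs differed in spread. The weight was 0.374 in spleen and ran from 0.306 in skeletal muscle to 2.88 in brown adipose tissue. A larger weight stands for less spread. Benjamini-Hochberg adjustment ran over all rows tested, at 0.05. The number of arrays limits the precision. The procedure was tested on simulated data. An exact sign test over 4 arrays cannot go below p = 0.125.

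The named genes are Nr4a1 to Nr4a3, rows past the test in spleen or against the other organs, and up to 6 genes with the largest ratios of each list. Fewer than 10 named genes passed as higher, so the 10 largest ratios among genes above 0 on every spleen array were added. Other list members are named as examples chosen after their values were seen. The comparison and the gene lists were chosen with earlier results of these data known. Alternatives tried concern weights, centring, scaling, dye terms, direction, probes, missing values, the replicate number as a block and each left-out array.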

Additional observations from a re-analysis of the deposited data

Results flagged for a closer look

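A value far from the other 3 arrays was found in 9 of 121 genes looked at and 1 of 31 list medians; chance gives about 1 in 20. Cela3b stood at -4.16 on replicate 1 (nearest array -3.74), Rpl35 at -3.74 on replicate 4 (-2.49) and Ube3a at 0.45 on replicate 3, below its other arrays. Among spleen and blood genes, Cd6 stood at -3.40 on replicate 4 (0.08), Lef1 at 1.05 on replicate 1 (-1.05), Batf at -3.26 on replicate 4 (-0.46), Ltf at 3.93 on replicate 1 (-0.37), Fech at 0.26 on replicate 1 (0.80) and Gp5 at 6.79 on replicate 4 (-0.69). The median of the megakaryocyte and platelet list was -0.86 on replicate 2 (-0.16).

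The effect differed between spleen and the mean of the other organs, by limma's contrast after adjustment, in 14 rows. As spleen minus the others on the log2 scale, these were Zg16 (-5.32), Ctrl (-5.88), Cela3b (-3.79), Rpl35 (-2.64), Ctrb1 (-5.88), Clps (-5.45), Cpa1 (-3.33), Pnliprp1 (-4.17) and Kndc1 (3.06). The rows without a symbol were probe 7166 (-4.51), probe 19552 (-4.26), probe 7240 (-5.06), probe 15438 (-3.27) and probe 5325 (-6.94). Probe 5325 stood at -6.14 in spleen itself, on 3 arrays, and did not pass there (adjusted p = 0.105).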

How the results depend on the processing

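The counts recomputed were the genes past the test in spleen (20) and the genes that differ between spleen and the other organs (14). With 1 spread for all organs, 160 rows passed in spleen (71 higher, 89 lower), all 20 of the main rows among them, and 75 differed from the other organs. With the spleen arrays alone and no dye term, 5 passed, all 5 lower. With the arrays carrying the mutant pool in Cy3 turned in sign, 0 rows passed in spleen (557 at an unadjusted p under 0.05) and 0 differed from the other organs (382 at that threshold), and the enzymes' median was -0.17. Under that sign the ratio changed direction for Cela2a (0.37), Ctrl (0.18), Zfp42 (0.13), Rpl35 (0.30), Akr1b8 (0.18), Ctrb1 (0.24) and Cpa1 (0.22). The other alternatives gave 16 to 25 rows in spleen, and leaving out 1 spleen array gave 16 to 28, 12 to 19 rows against the other organs, and an enzymes' median of -3.87 to -3.70. The replicate number as a block gave 19 rows in spleen, all among the 20, and 12 against the other organs. Of the 4 spleen arrays, 2 correlated best with arrays of their own number in the other organs. This does not settle whether the number pairs anything. Mean correlations were 0.01 to 0.06 with replicate numbers of the same dye orientation and -0.08 to -0.003 with those of the opposite orientation. Zg16, Ctrl and Ctrb1 passed under every alternative but the turned sign. Kndc1 and Cela2a passed under 7 and 6 of 18 alternatives. Without arrays centred, the enzymes' median was -3.87. Why the counts differ between settings was not tested.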

Other observations

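Some of the low rows have neighbouring probe numbers, a pattern seen in the data and not tested. Probes 7237 to 7243 are Pla2g1b, Zg16, Cela2a, 2 probes without a symbol, Ctrl and Ftcd. Of the unnamed ones, probe 7240 stood at -4.61, -7.88 and -3.50 on 3 spleen arrays and probe 7241 at -5.01 and -3.57 on 2. The divergent probe of Rpl35 has number 7663 and that of Akr1b8 number 7665, while probe 7664 between them, Dmbt1, was not low (0.44, -0.15, -0.85 and -0.37). The probes of Pnliprp1 and Cpa1 are 15636 and 15637. The probes numbered just before and after these 3 runs had no spleen value below -2.27.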
